A study of Mus musculus with 34 samples.

Results

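The response of A/J CD4+ splenocytes to PMA and ionomycin was taken from the 8 arrays whose title names A/J, out of 34 arrays from 5 inbred mouse strains. The 8 arrays form 2 groups. A/J T1 is 4 arrays of cells treated for 4 hours with 10 ng/ml PMA (phorbol 12-myristate 13-acetate) and 1 uM ionomycin, and A/J T0 is 4 arrays of unstimulated cells. All mice were females aged 8 weeks, and CD4+ cells were taken from their spleens with antibody-coated magnetic beads on an AutoMACS sorter, so the preparations are enriched cells and not a pure population. RNA was hybridised to a whole-transcript mouse array, and each value is a log2 intensity from the RMA method, in which a difference of 1 is a doubling. The same 2 conditions were measured in 129X1/SvJ, Balb/c and DBA/2J (3 arrays for each condition) and in C57BL/6J (4 arrays for each condition), which serve here only to show where A/J differs. Every gene was described through 1 probe set, that with the highest mean over all 34 arrays. Of the 19938 genes with such a probe set, 11413 were tested. These were the genes whose highest mean over the 10 groups (5 strains at T0 and T1) was at least 5.327 log2. The labels do not settle whether the T0 cells were kept in culture for the same 4 hours. If they were not, the effect of culture and that of the drugs cannot be told apart. The A/J replicates carry the numbers 1, 2, 4 and 5, and the labels call them biological without saying that each came from its own animals. The p-values thus measure the spread between such samples only, estimated for each gene within the groups of all 34 arrays.

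PMA stands in for diacylglycerol and turns on protein kinase C and the Ras guanine nucleotide exchange factor RasGRP, while ionomycin carries calcium across membranes and so turns on calcineurin, the phosphatase that sends NFAT transcription factors to the nucleus. Together they bypass the T cell receptor and drive AP-1, NF-kappaB and NFAT at once. In CD4+ T cells that have already met antigen the pair calls up the cytokines of each helper lineage, and in naive cells it calls up interleukin 2 and the genes of cell growth.

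The 8 A/J arrays fell into 2 clearly separate sets. Arrays of the same group correlated at 0.978 to 0.992 over the genes tested (Pearson r across genes, which are not independent replicates), and arrays of different groups at 0.858 to 0.910. The first principal component of the 8 arrays carried 82.5% of the variance and separated T1 from T0, and the second carried 6.43% and separated numbers 1 and 2 from numbers 4 and 5 at both times. The median SD of a gene over 4 arrays was 0.148 log2 at T1 and 0.152 log2 at T0. Markers of CD4 T cells, 12 of 12 of which reached the detection limit at both times, averaged 9.18 to 9.44 log2 in A/J T1 arrays and 9.51 to 9.74 log2 in A/J T0 arrays. Markers of B cells averaged 6.48 to 6.77 log2 in A/J T1 arrays and 7.14 to 7.34 log2 in A/J T0 arrays, and neutrophil markers 5.37 to 5.83 log2 in A/J T1 arrays and 6.83 to 7.17 log2 in A/J T0 arrays. Erythroid markers averaged 8.46 log2 in A/J T1 and 8.33 log2 in A/J T0. RNA of other cell types was thus measured in the preparations, and the means of the B cell and neutrophil lists were lower at T1. Members of the B cell list went both ways, with 10 of 18 called lower and 3 called higher. Fewer cells of a type and less RNA per cell cannot be told apart in such samples.

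After 4 hours of PMA and ionomycin, A/J cells held far more RNA of interleukin 2, interleukin 10, interferon gamma and the chemokines Ccl3 and Ccl4, and far less RNA of the interleukin 7 receptor, the egress receptor S1pr1 and the B cell receptor component Cd79b. At an adjusted p under 0.05 (limma, Benjamini-Hochberg over all 11413 genes), 6460 genes (56.6%) changed, 2315 (20.3%) higher at T1 and 4145 (36.3%) lower at T1. The larger changes were more even in direction by count: 643 genes (5.63%) were higher and 860 (7.54%) were lower by at least 1 log2, but at 3 log2 or more the counts were 31 higher and 3 lower. The 4 T1 arrays and the 4 T0 arrays did not overlap for 5993 genes (52.5%), of which 2121 (18.6%) had every T1 array above every T0 array and 3872 (33.9%) had every T1 array below. The median difference over all genes tested was -0.08 log2, a value that the differences below can be read against. Counts of list members are likewise to be read against 20.3% of all genes called higher and 36.3% called lower. For 250 genes called higher, the T0 mean was under the detection limit of 5.327 log2 while the T1 mean was not, and for 364 genes called lower it was the T1 mean that was under the limit. No fold is given for such genes, because a value under the limit has no reliable size, and their log2 differences are not exact sizes either. Genes named below whose T0 mean alone lay under the limit include Il2, Il3, Il5, Il17a, Il17f, Csf2, Lta, Ccl20, Gzmb, Batf3, Tnfsf9, Akr1c18 and Il9r. Those whose T1 mean alone lay under it include Btk, Cd22, Cd55, Fcrla, Il12rb2, Ly6g, Klrb1f, Tdgf1, Siglech, Ifi209 and Flt3. Both means lay under it for Idh1, Apol7c and Acsf2, among others.

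**Figure D1:**
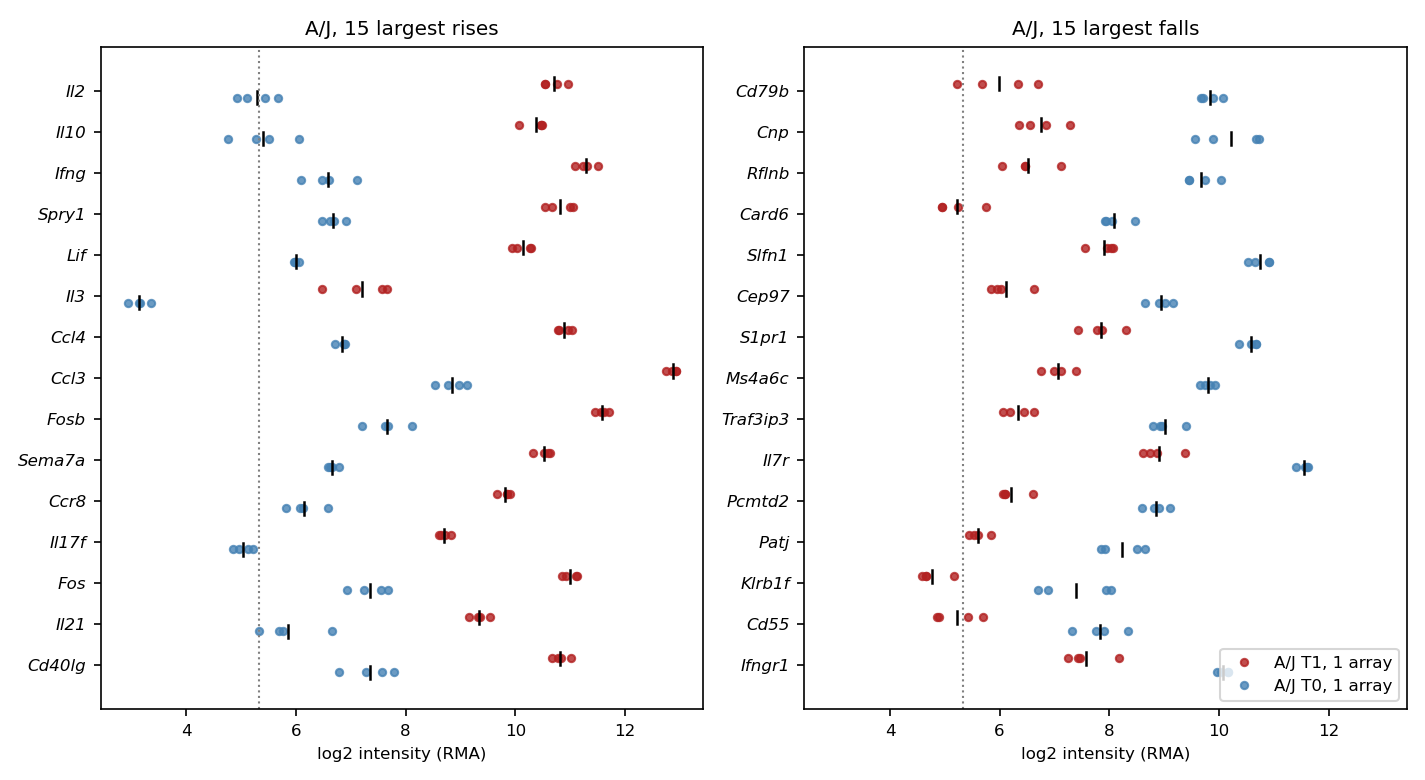
Log2 intensity of the 15 genes with the largest rise and the 15 with the largest fall in A/J, 1 point per array, with A/J T1 arrays drawn in red above A/J T0 arrays in blue, a black bar at each mean and a dotted line at the detection limit of 5.327. The T1 and T0 arrays of each of these 30 genes lie apart, and Il3 rises out of T0 values near 3 log2.

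Interleukin 2, the T cell growth factor, had the largest rise. Il2 had 10.96, 10.75, 10.53 and 10.54 log2 in A/J T1 arrays 1, 2, 4 and 5, against 5.11, 5.43, 4.92 and 5.66 log2 in A/J T0 arrays 1, 2, 4 and 5. All T1 arrays lay far above all T0 arrays, and the T0 values straddled the detection limit. The difference was 5.42 log2 (SE 0.19, limma adjusted p = 5.04e-20). The 250 bases before the start of Il2 in the RefSeq annotation are shown because this is the stretch in which NFAT and AP-1 act in T cells. They lie at chr3:37125955-37126204 (GRCm38.p6, minus strand) and come from the C57BL/6J reference, so A/J bases may differ. Capitals mark GGAAA, the NFAT core, on either strand.
Il2 promoter: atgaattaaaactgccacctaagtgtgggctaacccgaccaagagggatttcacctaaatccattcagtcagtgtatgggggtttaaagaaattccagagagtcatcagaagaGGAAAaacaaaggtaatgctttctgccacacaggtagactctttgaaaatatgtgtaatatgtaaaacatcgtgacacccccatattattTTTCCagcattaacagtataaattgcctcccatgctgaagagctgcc
GGAAA was found 2 times in this window and TATAAA, the TATA box, 1 time, while TGANTCA, the AP-1 motif, was not found. Of all 32851 promoter windows of this length 55.6% held GGAAA on either strand, 12.4% held TATAAA and 6.75% held TGANTCA. Windows were available for 12 of the 15 genes with the largest rises, and 8 of these 12 windows (66.7%) held GGAAA. Of the 13 windows of 11 genes among the 15 largest falls, 6 (46.2%) did. A match describes the letters and not a bound site.

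The cytokines as a group were the list with the highest median response. Of 22 cytokine genes tested, 16 rose, 1 fell and 5 did not pass the test, with a median of 2.45 log2, against 20.3% of all genes called higher. Interleukin 10, which restrains immune responses, came next to Il2. Il10 had 10.47, 10.07, 10.48 and 10.47 log2 in A/J T1 arrays 1, 2, 4 and 5, against 5.28, 4.76, 5.51 and 6.06 log2 in A/J T0 arrays 1, 2, 4 and 5. The T1 arrays lay close together and all stood above the T0 arrays, a 31.4-fold rise (SE 0.21 log2, limma adjusted p = 6.01e-18). This fold is approximate, because the T0 values straddled the detection limit and their mean of 5.40 log2 was just above it. Interferon gamma, the macrophage-activating cytokine of type 1 helper cells, rose 26.2-fold. Ifng had 11.51, 11.31, 11.23 and 11.10 log2 in A/J T1 arrays 1, 2, 4 and 5, against 6.48, 6.61, 6.10 and 7.11 log2 in A/J T0 arrays 1, 2, 4 and 5. Here too the arrays of the 2 groups lay apart by several log2 units.

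Cytokines of each helper lineage were among the risers. Il17a and Il17f, the cytokines of type 17 helper cells, rose by 3.25 and 3.66 log2, inexact sizes since both T0 means lay under the detection limit, and Il21, a helper signal to B cells, rose by 3.48 log2. Among the type 2 cytokines encoded close together on chromosome 11, Il13 rose by 2.58 log2 and Il5 by 2.32 log2, but Il4 differed by only 0.19 log2 and was not called. Il3, a growth factor for mast cells and basophils, rose by 4.05 log2. Il3 had 7.66, 7.10, 7.56 and 6.47 log2 in A/J T1 arrays 1, 2, 4 and 5, against 3.16, 3.13, 2.94 and 3.35 log2 in A/J T0 arrays 1, 2, 4 and 5. No Il3 value at T0 reached the detection limit, so the size of this rise is not exact. Csf2 (GM-CSF) rose by 3.46 log2, Tnf by 2.89 log2 and Lif, a member of the interleukin 6 family, by 4.14 log2. The single fall was that of Ltb, a membrane-bound partner of lymphotoxin, at -1.32 log2, while its partner gene Lta rose by 1.01 log2. The cytokine genes that did not pass the test were Il4, Il12a, Il1a, Ebi3 and Osm, the last with a difference of 0.00 log2.

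Chemokines and the TNF family of membrane ligands rose as well. Of 13 chemokine genes, 10 rose and 3 did not pass the test (76.9% called, against 56.6% of all genes). Their median was 1.93 log2. Ccl3, which draws macrophages and T cells, stood higher at T1 by 4.02 log2. Ccl3 had 12.86, 12.75, 12.93 and 12.92 log2 in A/J T1 arrays 1, 2, 4 and 5, against 8.77, 8.53, 8.96 and 9.13 log2 in A/J T0 arrays 1, 2, 4 and 5. The related Ccl4 rose 16.6-fold (T1 mean 10.89, T0 mean 6.84 log2). Cxcl2, a neutrophil attractant, rose by 2.88 log2, Xcl1 (lymphotactin) by 2.37 log2 and Ccl20, the ligand of Ccr6, by 2.18 log2. Cxcl16 had a difference of 0.08 log2 that did not pass the test. Of 8 TNF superfamily ligands, 6 rose and 2 did not pass the test (75% called). Their median was 1.51 log2. Cd40lg, by which helper T cells license B cells, rose 11-fold. Cd40lg had 11.01, 10.83, 10.68 and 10.78 log2 in A/J T1 arrays 1, 2, 4 and 5, against 7.28, 7.57, 6.78 and 7.79 log2 in A/J T0 arrays 1, 2, 4 and 5. Its groups did not overlap, and Tnfsf14 (LIGHT) followed at 2.01 log2 and Tnfsf11 (RANK ligand) at 1.55 log2.

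Receptors of activated T cells mostly rose, and those that receive interleukins 12 and 18 fell. Of 26 activation and costimulatory receptor genes, 18 rose, 2 fell and 6 did not pass the test (76.9% called, against 56.6% of all genes). Their median was 1.07 log2. The largest rises were those of Slamf1 (3.23 log2), Cd200 (2.78 log2) and Btla (2.75 log2), the last an inhibitory receptor. Cd69, which holds activated cells in lymphoid tissue, rose by 2.45 log2, Il2ra, the alpha chain that gives the interleukin 2 receptor high affinity, by 2.28 log2, and Ctla4, the inhibitory competitor of Cd28, by 2.05 log2. The falls were those of Il18r1 (-1.66 log2) and Il12rb2 (-1.36 log2, inexact because its T1 mean lay under the detection limit). Pdcd1, which encodes PD-1, differed by 0.23 log2 and was not called.

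All 26 immediate early and activation transcription factor genes that were tested rose, with a median of 2.04 log2. Fosb and Fos, which encode AP-1 subunits, rose 15.2-fold and 12.6-fold. Fos had 10.92, 11.12, 11.11 and 10.84 log2 in A/J T1 arrays 1, 2, 4 and 5, against 6.93, 7.54, 7.23 and 7.67 log2 in A/J T0 arrays 1, 2, 4 and 5. The T1 arrays lay within a narrow band above all T0 arrays. Atf3 rose by 3.19 log2, Myc, the driver of growth, by 3.15 log2, Egr1 by 3.11 log2, Egr2 by 2.87 log2 and Nr4a2, an orphan nuclear receptor, by 2.91 log2. Irf4, which scales with the strength of T cell receptor signalling, rose by 2.65 log2, and its relative Irf8 by 2.06 log2. The smallest rises in the list were those of Crem (0.27 log2), Batf3 (0.40 log2) and Jund (0.66 log2). Batf3 lost its call when 1 of A/J T1 replicates 1, 2 or 5 or A/J T0 replicates 2 or 5 was left out (adjusted p 0.0518 to 0.159).

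The signalling genes through which ionomycin and PMA act moved in both directions. Of 17 NFAT and calcium signalling genes, 5 rose, 11 fell and 1 did not pass the test (94.1% called, against 56.6% of all genes). Their median was -0.57 log2. The calcineurin catalytic subunit genes Ppp3ca, Ppp3cb and Ppp3cc fell by 1.09, 0.90 and 1.22 log2, and the regulatory subunit gene Ppp3r1 fell by 0.69 log2. Nfatc1, whose short form is itself an NFAT target, rose by 0.68 log2, while Nfatc3 fell by 1.06 log2 and Nfatc2 by 0.33 log2. Rcan1, a calcineurin inhibitor, rose by 1.00 log2 and its paralogue Rcan3 fell by 1.59 log2. Of 17 NF-kappaB genes, 8 rose, 4 fell and 5 did not pass the test (70.6% called, against 56.6% of all genes). Of all genes 20.3% were called higher and 36.3% lower. The risers were led by the inhibitors and co-regulators, Nfkbid at 3.46 log2, Nfkbiz at 2.21 log2, Nfkbia at 1.57 log2 and Tnfaip3 (A20) at 1.54 log2. Of the subunits, Rel rose by 1.67 log2, and Rela and Nfkb2 had differences of 0.03 and 0.11 log2 that were not called. Ikbkb, a kinase of the pathway, fell by 0.93 log2.

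Genes that restrain MAP kinases and cytokine signals mostly rose. Of 24 feedback genes, 17 rose, 3 fell and 4 did not pass the test (83.3% called, against 56.6% of all genes). Their median was 1.19 log2. Spry1, which restrains Ras signalling, rose 17.7-fold. Spry1 had 11.01, 11.06, 10.55 and 10.67 log2 in A/J T1 arrays 1, 2, 4 and 5, against 6.47, 6.69, 6.63 and 6.90 log2 in A/J T0 arrays 1, 2, 4 and 5. Its T1 arrays all lay well above its T0 arrays. The MAP kinase phosphatase genes Dusp4, Dusp6, Dusp14 and Dusp2 rose by 2.66, 2.50, 2.48 and 2.00 log2, whereas Dusp10 fell by 1.49 log2. Dgka, a kinase that removes the diacylglycerol PMA imitates, fell by 0.97 log2. Of the cytokine signal inhibitors, Socs3 rose by 0.86 log2 and Cish by 0.74 log2, and Socs1 had a difference of -0.19 log2 that was not called.

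**Figure D2:**
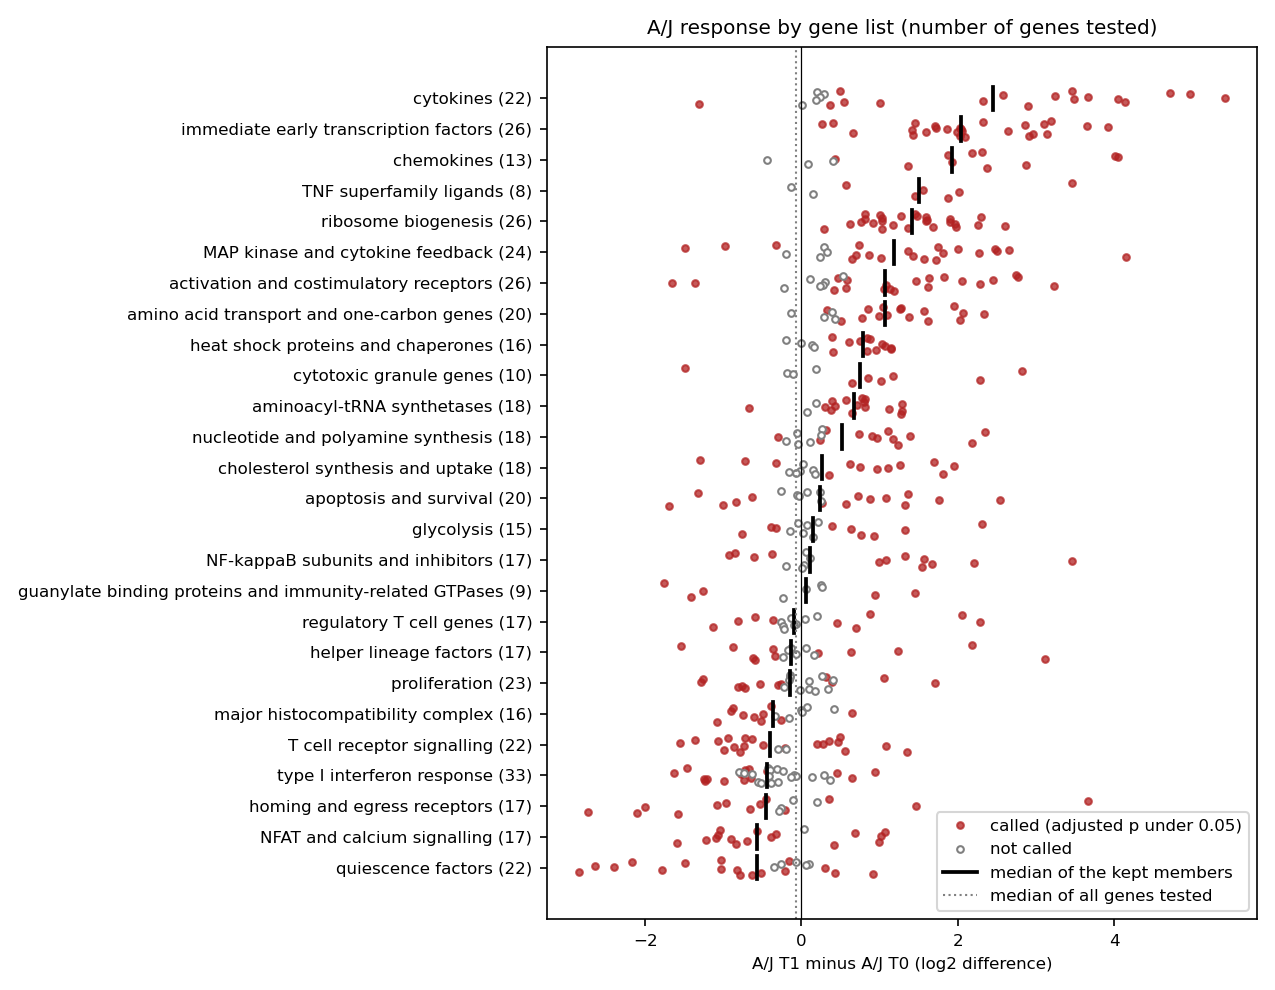
A/J response (T1 minus T0, log2) of the tested members of 26 gene lists, 1 point per gene, filled where the gene was called and open where it was not, with a bar at the list median and a dotted line at -0.08, the median of all genes tested. Immediate early factors and ribosome biogenesis genes all lie right of 0, and the median of the quiescence factors is -0.57.

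Most genes of the quiescence list fell. Of 22 quiescence factors, 14 fell, 3 rose and 5 did not pass the test, with a median of -0.57 log2, against 36.3% of all genes called lower. Il7r, which carries the survival signal of resting T cells, showed this in every array. Il7r had 8.62, 8.75, 9.38 and 8.87 log2 in A/J T1 arrays 1, 2, 4 and 5, against 11.41, 11.63, 11.57 and 11.60 log2 in A/J T0 arrays 1, 2, 4 and 5. The groups lay apart, and the T1 mean was lower by a factor of 6.26 (SE 0.14 log2, limma adjusted p = 3.6e-16). Slfn1, a Schlafen gene of quiescent lymphocytes, fell by 2.85 log2, Klf3 by 2.40 log2, Ccng2 by 2.17 log2 and Cdkn1b, which encodes the cell cycle inhibitor p27, by 1.49 log2. Tob2 (0.91 log2), Tob1 (0.43 log2) and Klf6 (0.30 log2) were the members that rose. Klf2, which maintains quiescence and migration, differed by -0.35 log2 and was not called.

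Of 17 homing and egress receptor genes, 10 fell, 3 rose and 4 did not pass the test (76.5% called, against 56.6% of all genes). Their median was -0.45 log2. S1pr1, which guides T cells out of lymphoid organs, fell 6.65-fold. S1pr1 had 7.42, 7.77, 8.31 and 7.87 log2 in A/J T1 arrays 1, 2, 4 and 5, against 10.36, 10.68, 10.67 and 10.59 log2 in A/J T0 arrays 1, 2, 4 and 5. Its T1 arrays all lay below its T0 arrays, and S1pr4 fell by 2.11 log2. The integrin chain gene Itga4 fell by 2.00 log2 and Selplg, the P-selectin ligand, by 1.58 log2. Ccr8, the receptor of Ccl1, went the other way with a 12.7-fold rise (T1 mean 9.82, T0 mean 6.15 log2), and Gpr183, an oxysterol receptor, rose by 1.47 log2. Ccr7, the lymph node homing receptor, differed by -0.11 log2 and was not called.

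Components of the T cell receptor pathway moved in both directions. Of 22 genes, 12 fell, 8 rose and 2 did not pass the test, against 36.3% of all genes called lower and 20.3% called higher, with a median of -0.40 log2. Cd3g, Cd247, Cd3d and Cd3e, which encode the signalling chains of the receptor, fell by 1.37, 0.95, 0.72 and 0.63 log2. Grap2, an adaptor, fell by 1.55 log2, and Zap70, the kinase bound to those chains, rose by 1.35 log2. Ptpn22, a phosphatase that dampens the pathway, rose by 1.09 log2.

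Helper lineage factors were mixed, with 5 of 17 genes higher, 6 lower and 6 not past the test. The share called was 64.7%, against 56.6% of all genes. Tbx21, which encodes T-bet, rose by 3.11 log2, Ahr, a receptor used by type 17 cells, by 2.18 log2 and Prdm1 (Blimp-1) by 1.24 log2. Bcl6, the factor of follicular helper cells that Blimp-1 opposes, fell by 1.54 log2, and Eomes fell by 0.87 log2. Gata3, the factor of type 2 cells, and Foxp3, that of regulatory T cells, had differences of 0.06 and -0.13 log2 that were not called. Of 17 regulatory T cell genes, 5 rose, 4 fell and 8 did not pass the test (52.9% called, near the share of all genes). The risers Il2ra and Ctla4 are also activation genes. Of 10 cytotoxic granule genes, 6 rose, 1 fell (Ctsw, -1.49 log2) and 3 did not pass the test (70% called, against 56.6% of all genes). The risers included Gzmb (granzyme B) at 2.82 log2, an inexact size because its T0 mean lay under the detection limit, and Serpinb6b at 2.29 log2.

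Several of the largest falls lay outside these lists. Cd79b, a signalling chain of the B cell receptor, had the largest. Cd79b had 5.23, 5.68, 6.70 and 6.34 log2 in A/J T1 arrays 1, 2, 4 and 5, against 9.89, 9.67, 9.71 and 10.07 log2 in A/J T0 arrays 1, 2, 4 and 5. The T1 arrays were spread over more than 1 log2 unit but all lay under the T0 arrays, for a 14.4-fold fall (SE 0.24 log2, limma adjusted p = 3e-14). Cnp, a cyclic nucleotide phosphodiesterase best known from myelin, fell 11-fold. Cnp had 6.36, 6.84, 7.28 and 6.56 log2 in A/J T1 arrays 1, 2, 4 and 5, against 10.68, 10.74, 9.56 and 9.89 log2 in A/J T0 arrays 1, 2, 4 and 5. At T0 the arrays numbered 1 and 2 lay above those numbered 4 and 5. Rflnb, a filamin-binding protein, fell 8.87-fold, Cep97, a centriole protein, 7.08-fold, Traf3ip3 6.43-fold and Pcmtd2 6.24-fold. Ifngr1, the ligand-binding chain of the interferon gamma receptor, fell 5.67-fold, so the ligand gene rose while this receptor gene fell. Cd55, which shields cells from complement, fell by 2.61 log2 to a mean under the detection limit.

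The machinery for making ribosomes rose as a whole. All 26 ribosome biogenesis genes tested rose, with a median of 1.41 log2, from Wdr12 at 0.28 log2 to Rrp1b at 2.60 log2. Wdr12, the weakest of them, lost its call when 1 of A/J T1 replicates 1 or 2 or A/J T0 replicates 1, 2 or 4 was left out (adjusted p 0.0644 to 0.116). Gnl3 (nucleostemin) rose by 2.29 log2, Rrp12 by 2.27 log2, Polr1b, a subunit of RNA polymerase I, by 1.97 log2 and Nolc1 by 1.89 log2. Gnl3 had 10.81, 10.68, 10.69 and 10.62 log2 in A/J T1 arrays 1, 2, 4 and 5, against 8.32, 8.32, 8.33 and 8.66 log2 in A/J T0 arrays 1, 2, 4 and 5. Each T1 array of Gnl3 lay more than 2 log2 units above 3 of the T0 arrays, and the T0 array numbered 5 was the highest of its group.

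Supply of amino acids and nucleotides rose in most members of the lists. Of 20 genes of amino acid transport and one-carbon metabolism, 16 rose and 4 did not pass the test, with a median of 1.07 log2. They included Shmt1 (2.34 log2) and Psat1 (2.07 log2) of serine and folate metabolism, the arginine and lysine carrier Slc7a1 (2.02 log2), asparagine synthetase Asns (1.95 log2) and Slc7a5 (1.62 log2), the leucine carrier. Of 18 aminoacyl-tRNA synthetase genes, 15 rose and 2 did not pass the test, with a median of 0.68 log2, and Qars fell by 0.67 log2. Of 18 genes of nucleotide and polyamine synthesis, 11 rose, 1 fell and 6 did not pass the test (66.7% called, against 56.6% of all genes). Ctps, which makes CTP, rose by 2.35 log2, and the polyamine enzymes Srm and Odc1 rose by 2.18 and 1.39 log2. The ribonucleotide reductase genes Rrm1 and Rrm2 and thymidylate synthase, Tyms, had differences of -0.20, 0.11 and -0.05 log2, none of which was called.

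Cholesterol and glucose pathways responded in part. Of 18 cholesterol genes, 9 rose, 3 fell and 6 did not pass the test (66.7% called, against 56.6% of all genes). Their median was 0.27 log2. The synthesis genes Idi1, Sqle, Cyp51 and Hmgcs1 rose by 1.96, 1.82, 1.69 and 1.27 log2, and the cholesterol exporters Abca1 and Abcg1 fell by 1.30 and 0.72 log2. Of 15 glycolysis genes, 6 rose, 3 fell and 6 did not pass the test (60% called, against 56.6% of all genes). Hk2, the inducible hexokinase, rose by 2.31 log2, Pgam1 by 1.32 log2 and the glucose carrier gene Slc2a3 by 0.93 log2, while Ldha (lactate dehydrogenase A) differed by 0.07 log2 and was not called. Of 16 chaperone genes, 12 rose and 4 did not pass the test (75% called, against 56.6% of all genes). Their median was 0.79 log2, and Hspd1 (1.15 log2), Hspa9 (1.14 log2) and Hspa5 (1.07 log2) led them.

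Genes of the cell division cycle did not rise together at this time. Of 23 proliferation genes, 4 rose, 8 fell and 11 did not pass the test, with a median of -0.14 log2. The share called, 52.2%, was near the 56.6% of all genes, of which 20.3% were called higher and 36.3% lower. Cdk6 and Ccnd2, which act in the G1 phase, rose by 1.70 and 1.05 log2, and the cyclin D3 gene Ccnd3 fell by 1.26 log2. Mcm6, Mcm4 and Mcm7, which encode helicase subunits of DNA replication, fell by 0.81, 0.76 and 0.73 log2. Mki67, the proliferation marker, differed by 0.33 log2 and was not called. Of 20 apoptosis and survival genes, 9 rose, 5 fell and 6 did not pass the test (70% called, against 56.6% of all genes). Gadd45b rose by 2.54 log2, Bcl2l1, which encodes the survival protein Bcl-xL, by 1.36 log2 and the death receptor gene Fas by 1.08 log2, while Bcl2 fell by 1.32 log2 and Sesn3 by 1.69 log2.

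Few genes of the type I interferon response rose. Of 33 genes, 3 rose, 12 fell and 18 did not pass the test (45.5% called, against 56.6% of all genes). The number that fell is near the background share of 36.3% called lower, and the median was -0.44 log2. Ifit2, an antiviral protein of the IFIT family, fell by 1.63 log2, the RNA sensor gene Ddx58 by 1.47 log2, Parp14 by 1.25 log2 and Stat2, a factor through which type I interferon signals, by 1.24 log2. Ifih1, the RNA sensor MDA5, rose by 0.95 log2. Of 9 guanylate binding protein and immunity-related GTPase genes, 2 rose (Gbp8 at 1.45 log2 and Gbp9 at 0.94 log2), 3 fell and 4 did not pass the test. The share called, 55.6%, was near that of all genes. The falls were those of Gbp2b (-1.75 log2), Iigp1 (-1.42 log2) and Gbp7 (-1.26 log2), all of them genes that interferon gamma induces in macrophages. Of 16 genes of the major histocompatibility complex and antigen presentation, 1 rose (H2-Eb1, 0.65 log2), 9 fell and 6 did not pass the test. The share called was 62.5%, against 56.6% of all genes. Tapbp (tapasin) fell by 1.07 log2 and Ciita, the master regulator of class II genes, by 0.87 log2.

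Markers of other cells in the preparation did not move alike. Of 18 B cell markers tested, 10 fell, 3 rose and 5 did not pass the test (72.2% called, against 56.6% of all genes). Their median was -0.73 log2. Cd79b, Cd22 (-1.40 log2), Cd79a (-1.36 log2) and Ms4a1 (CD20, -1.35 log2) fell, Blk (0.90 log2) and Cd72 (0.82 log2) rose, and the immunoglobulin heavy chain gene Ighm differed by 0.22 log2 and was not called. Of 11 neutrophil markers, 9 fell and 2 did not pass the test (81.8% called). Their median was -1.91 log2. The granule and alarmin genes Lcn2, S100a9, Ltf and Ngp fell by 2.46, 2.41, 2.38 and 2.31 log2. S100a9 had 5.89, 5.96, 6.63 and 5.72 log2 in A/J T1 arrays 1, 2, 4 and 5, against 8.66, 8.55, 8.37 and 8.24 log2 in A/J T0 arrays 1, 2, 4 and 5. All T1 arrays lay below all T0 arrays. Of 11 erythroid markers, limma called 0 at an adjusted p under 0.05, and 0 had an unadjusted p under 0.05 (lowest unadjusted p = 0.232). Their mean ranged over 8.17 to 8.79 log2 in A/J T1 arrays and 7.92 to 9.02 log2 in A/J T0 arrays. Of 22 myeloid and dendritic cell markers, 17 did not pass the test, 4 fell and 1 rose (22.7% called, against 56.6% of all genes). At T1 14 of 18 B cell markers and 5 of 14 neutrophil markers had a mean at or above the detection limit, against 17 of 18 and 11 of 14 at T0. The part of these cells in the falls of Cd79b and of the class II regulator genes was not tested.

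**Figure D3:**
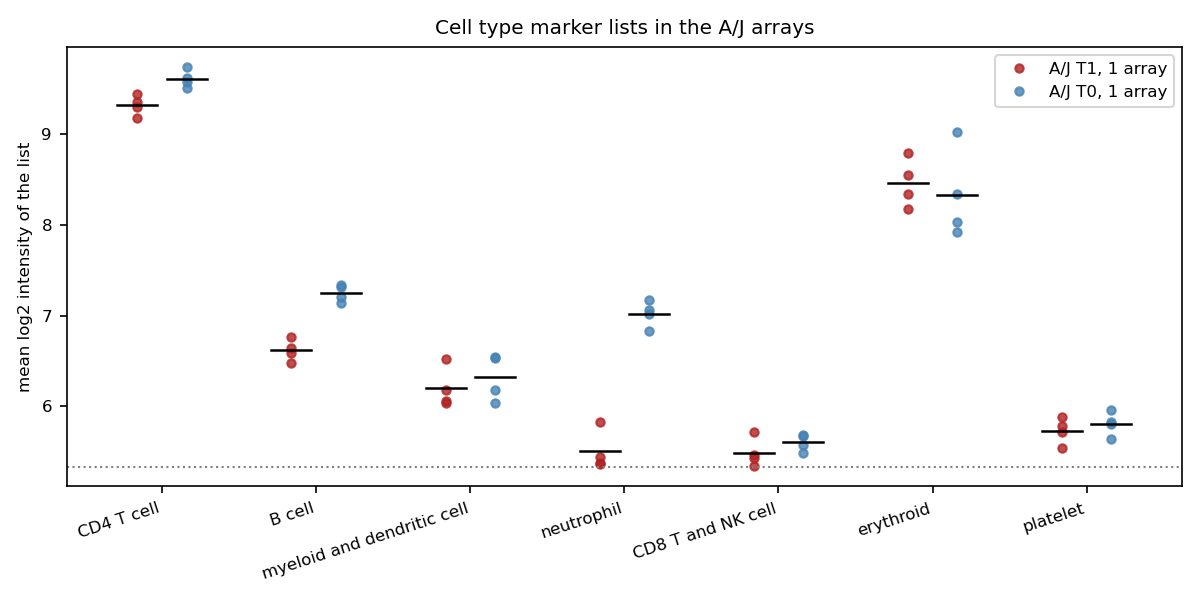
Mean log2 intensity of 7 lists of cell type markers in each A/J array, with A/J T1 arrays in red to the left of A/J T0 arrays in blue, a black bar at each group mean and a dotted line at the detection limit of 5.327. The means of the neutrophil and B cell lists are lower in every T1 array than in every T0 array, and those of the erythroid list overlap between the groups.

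MicroRNA genes were a smaller share of the calls. Of 300 microRNA genes with a probe set, 101 were tested, of which 32 rose, 9 fell and 60 did not pass the test (40.6% called, against 56.6% of all genes), with a median of 0.19 log2. The array reads the transcript at the gene and not the mature strand. Mir155, whose host transcript is a known product of activated lymphocytes, rose 11-fold. Mir155 had 10.83, 10.65, 10.75 and 11.05 log2 in A/J T1 arrays 1, 2, 4 and 5, against 7.35, 7.13, 7.52 and 7.42 log2 in A/J T0 arrays 1, 2, 4 and 5. The T1 arrays lay more than 3 log2 units above the T0 arrays (SE 0.11, limma adjusted p = 2.03e-20). Genes of the Mir17hg cluster, which favours growth of lymphocytes, rose together. Mir17 rose by 2.78 log2, Mir18 by 2.82 log2, Mir19a by 3.09 log2, Mir20a by 2.91 log2, Mir19b-1 by 2.93 log2 and the host gene Mir17hg by 2.14 log2. They lie within a single transcript and are not independent measurements. Mir342 had 5.57, 6.03, 5.65 and 6.09 log2 in A/J T1 arrays 1, 2, 4 and 5, against 8.23, 8.53, 7.35 and 7.27 log2 in A/J T0 arrays 1, 2, 4 and 5. Mir342 thus fell by 2.01 log2 (limma adjusted p = 6.13e-07), and its T0 arrays numbered 1 and 2 lay above those numbered 4 and 5. The mature strands that these genes encode are shown with the seed, bases 2 to 8, in capitals, since strands with the same seed share targets. The sequences and positions come from RefSeq (GRCm38.p6, plus strand).
mmu-miR-155-5p (chr16:84714143-84714165): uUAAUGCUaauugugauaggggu
mmu-miR-17-5p (chr14:115043684-115043706): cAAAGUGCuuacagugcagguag
mmu-miR-20a-5p (chr14:115044183-115044205): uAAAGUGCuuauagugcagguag
mmu-miR-18a-5p (chr14:115043867-115043889): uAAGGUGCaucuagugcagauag
mmu-miR-19a-3p (chr14:115044048-115044070): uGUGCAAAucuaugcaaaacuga
mmu-miR-19b-3p (chr14:115044358-115044380): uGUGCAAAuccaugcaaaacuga
mmu-miR-342-3p (chr12:108658680-108658702): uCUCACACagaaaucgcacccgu
Of the strands of the cluster, miR-17-5p and miR-20a-5p carry the same seed, AAAGUGC, and miR-19a-3p and miR-19b-3p share GUGCAAA, so the 5 shown hold 3 seeds.

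A/J responded much as the other strains did, with a small set of exceptions from their mean response. These were led by Il4, Gzmb, Trub1 and Il3 on one side and Ly6d, Ifi209 and Idh1 on the other. Over the 11413 genes the A/J response and the mean response of the other 4 strains correlated at 0.960 (Pearson r across genes, a description). The spread of the responses was 0.700 log2 (SD) in A/J and 0.775 log2 in the others. The difference between the responses passed the test (limma, adjusted p under 0.05) for 117 genes (1.03%), 80 (0.701%) with the A/J response above and 37 (0.324%) with it below. The total was 75 without A/J T1 replicate 4 and 73 without A/J T0 replicate 1, and it was 31 and 32 with the A/J arrays numbered 1 and 2 alone or 4 and 5 alone. The 80 became 52, 45 and 49 without A/J T1 replicate 2, A/J T1 replicate 4 and A/J T0 replicate 1, and the 37 became 24 and 22 without A/J T0 replicates 1 and 2. Without DBA/2J the total was 31 and without 129X1/SvJ it was 48. In 101 of the 117 the A/J response lay beyond those of all 4 other strains. This compares mean responses without their spread, and the share over all genes was not computed. It also follows in part from the choice of the 117, which were called for their distance from the mean of the others. Set against single strains, the A/J response differed for 323 genes (2.83%) from 129X1/SvJ, for 12 (0.105%) from Balb/c, for 128 (1.12%) from C57BL/6J and for 392 (3.43%) from DBA/2J. These comparisons share the A/J arrays. Trub1 and Idh1 were the 2 genes that differed from each of the 4 strains. The Il4 response did not differ from that of Balb/c (limma adjusted p = 0.671) or C57BL/6J (adjusted p = 0.214). That of Il3 did not differ from 129X1/SvJ (adjusted p = 0.927), and that of Ly6d not from Balb/c (adjusted p = 0.858). Gzmb differed from DBA/2J alone (adjusted p = 0.000234).

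**Figure D4:**
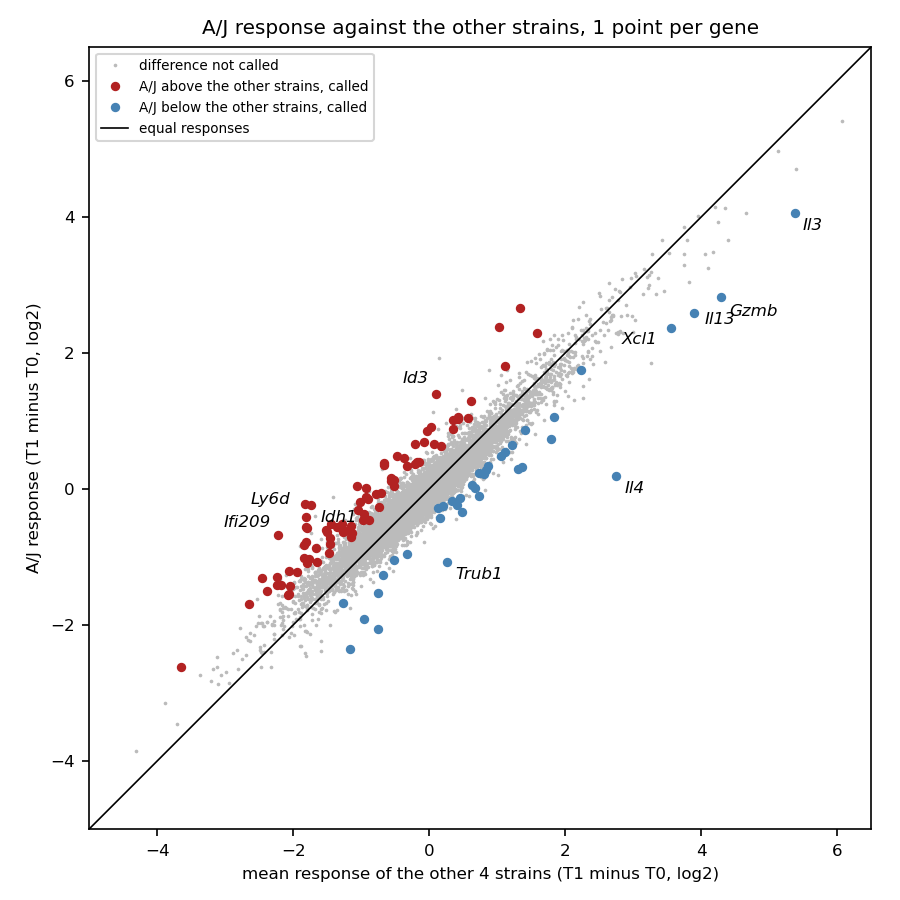
A/J response (vertical axis) against the mean response of the other 4 strains (horizontal axis), both as T1 minus T0 in log2, 1 point per gene, with red for genes whose A/J response was called above and blue for those called below the others and a line at equal responses. Most genes lie along the line, and Il4 sits near 0 on the A/J axis and near 3 on the other.

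Il4, the signature cytokine of type 2 helper cells, had about the same level in A/J cells with and without stimulation. Il4 had 10.91, 10.62, 10.98 and 10.69 log2 in A/J T1 arrays 1, 2, 4 and 5, against 10.53, 10.87, 9.96 and 11.07 log2 in A/J T0 arrays 1, 2, 4 and 5. The groups overlapped. The response was 0.19 log2 in A/J, against 4.90 in DBA/2J, 3.80 in 129X1/SvJ, 1.18 in C57BL/6J and 1.13 in Balb/c, a difference of -2.56 log2 from their mean (SE 0.28, limma adjusted p = 3.06e-06). At T1 A/J stood -0.39 log2 from the other strains, which did not pass the test (adjusted p = 0.176), and at T0 it stood 2.17 log2 above them (adjusted p = 2.88e-09). Il4 at T0 was 10.29, 10.05 and 10.54 log2 in Balb/c, within the range of A/J. In C57BL/6J it was 9.31, 9.95, 9.65 and 9.97 log2, and only the array at 9.97 log2 passed the lowest A/J array, at 9.96 log2. In 129X1/SvJ Il4 at T0 was 7.31, 6.44 and 6.81 log2 and in DBA/2J 7.21, 7.00 and 6.46 log2, far below A/J. Il13, the neighbour of Il4, had the same order of strains by T0 mean. Il13 had 9.21, 9.19, 9.53 and 8.73 log2 in A/J T1 arrays 1, 2, 4 and 5, against 6.58, 6.48, 6.36 and 6.92 log2 in A/J T0 arrays 1, 2, 4 and 5. The A/J rise of 2.58 log2 was -1.31 log2 from the mean of the others (adjusted p = 0.000568). It did not differ from the rise in Balb/c alone (limma adjusted p = 0.242) or C57BL/6J alone (adjusted p = 0.0774). The T0 level of Il13 was 0.99 log2 above the others and the T1 level differed by -0.32 log2 (adjusted p = 0.151).

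The promoter windows of Il4 and Il13 are shown because these genes lie together and differ in the size of the A/J response. RefSeq gives Il4 a pair of start sites. The window shown lies at chr11:53618666-53618915, and that of Il13 at chr11:53634703-53634952 (both GRCm38.p6, minus strand), with GGAAA on either strand in capitals.
Il4 promoter, window 2: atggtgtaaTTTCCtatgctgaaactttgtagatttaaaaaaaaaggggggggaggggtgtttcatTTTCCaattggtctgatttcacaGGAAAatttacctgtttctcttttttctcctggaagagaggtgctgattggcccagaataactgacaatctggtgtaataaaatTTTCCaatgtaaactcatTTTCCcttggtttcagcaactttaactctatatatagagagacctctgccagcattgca
Il13 promoter: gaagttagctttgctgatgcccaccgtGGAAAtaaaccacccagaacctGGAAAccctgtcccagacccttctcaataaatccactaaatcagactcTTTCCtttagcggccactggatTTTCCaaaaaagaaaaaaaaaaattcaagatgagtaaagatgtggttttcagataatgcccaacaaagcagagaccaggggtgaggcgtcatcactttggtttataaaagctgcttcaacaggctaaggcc
GGAAA was found 5 times in this Il4 window, 0 times in the other Il4 window (chr11:53617339-53617588) and 4 times in that of Il13. TATAAA was found 2 times in the Il13 window, in a pair of matches that overlap on opposite strands. TGANTCA was found in none of the windows printed. The letters are those of the C57BL/6J reference and were not compared with A/J sequence.

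Il3 differed by its level after stimulation. It had 7.66, 7.10, 7.56 and 6.47 log2 in A/J T1 arrays and 7.48, 6.88 and 7.05 log2 in 129X1/SvJ T1 arrays, against 9.11, 8.57, 8.97 and 9.05 log2 in C57BL/6J T1 arrays. Balb/c T1 arrays had 9.09, 9.81 and 8.87 and DBA/2J T1 arrays 9.37, 9.03 and 8.70 log2. Every A/J and 129X1/SvJ T1 array thus lay below every T1 array of the other 3 strains. The A/J response was -1.32 log2 from the mean of the others (SE 0.24, limma adjusted p = 0.00285), the T1 level -1.39 log2 (adjusted p = 1.55e-06) and the T0 level -0.07 log2. Gzmb followed the same form, with a rise of 2.82 log2 in A/J and of 3.84 to 5.35 log2 in the others, and a T1 level -1.90 log2 from theirs. The T0 means of Gzmb lay under the detection limit in A/J, 129X1/SvJ and DBA/2J, so the sizes of these responses are not exact. The difference between the Gzmb responses, -1.47 log2 (adjusted p = 0.00785), was not called without DBA/2J (adjusted p = 0.192). Xcl1 rose by 2.37 log2 in A/J and by 2.32 to 4.78 log2 in the others, and its call was also lost without DBA/2J (adjusted p = 0.195).

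**Figure D5:**
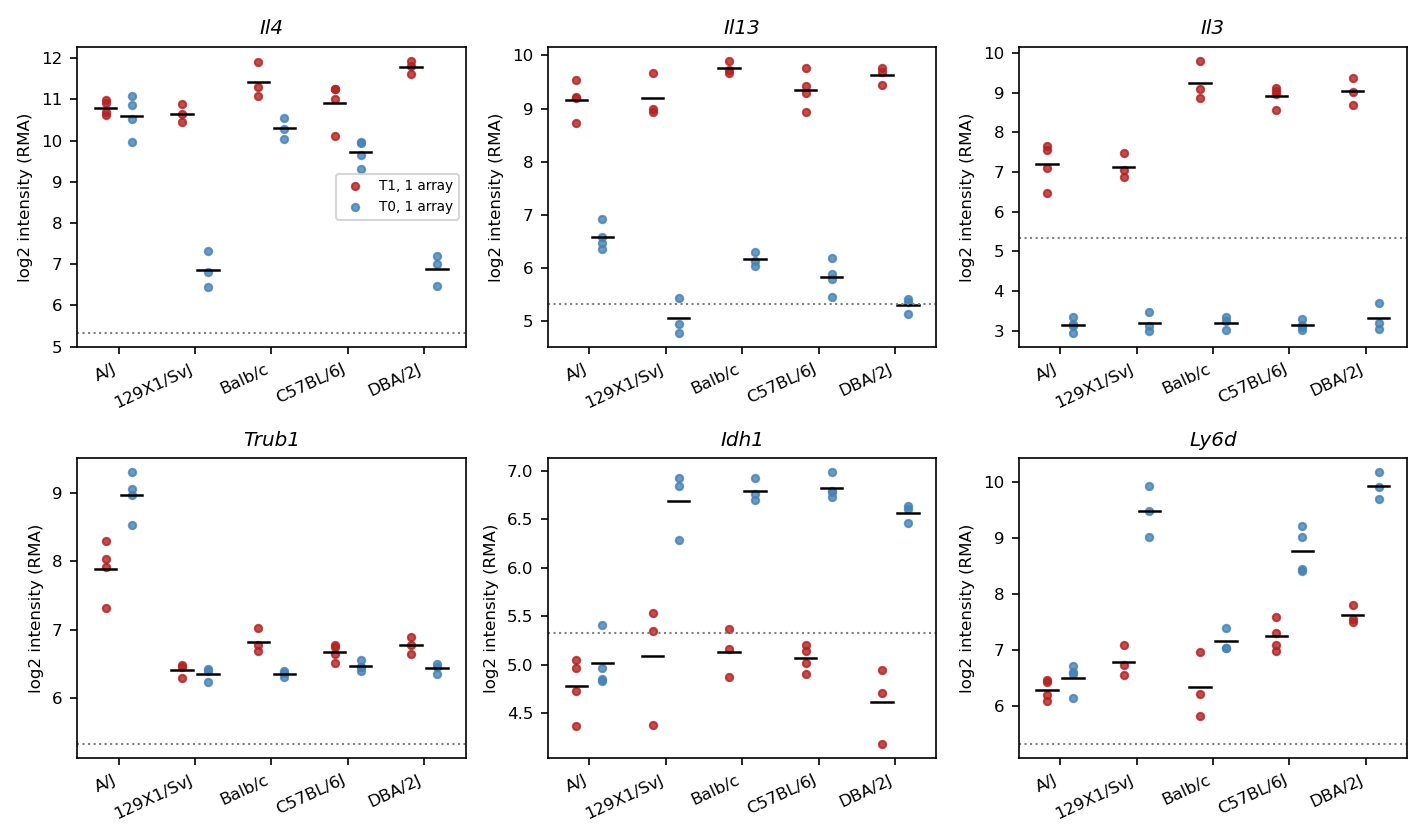
Log2 intensity of Il4, Il13, Il3, Trub1, Idh1 and Ly6d in all 34 arrays by strain, T1 arrays in red to the left of T0 arrays in blue, with a black bar at each mean and a dotted line at the detection limit of 5.327. A/J has high Il4 at T0, low Il3 at T1, high Trub1 at both times and low Idh1 and Ly6d at T0.

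Trub1, a pseudouridine synthase of tRNA, fell in A/J and in no other strain by mean. Trub1 had 8.04, 7.32, 8.29 and 7.92 log2 in A/J T1 arrays 1, 2, 4 and 5, against 9.05, 8.53, 9.31 and 8.97 log2 in A/J T0 arrays 1, 2, 4 and 5. The other strains had T0 means of 6.35 to 6.47 log2, so A/J stood 2.56 log2 above them at T0 and 1.22 log2 above them at T1. The A/J response of -1.07 log2 differed by -1.34 log2 from theirs (SE 0.16, limma adjusted p = 1.69e-05). Idh1, the cytosolic isocitrate dehydrogenase, had both A/J means under the detection limit. Idh1 had 4.73, 4.97, 4.37 and 5.05 log2 in A/J T1 arrays 1, 2, 4 and 5, against 4.97, 5.41, 4.85 and 4.83 log2 in A/J T0 arrays 1, 2, 4 and 5. The groups overlapped, and T0 array 2 alone passed the limit. The others fell by 1.60 to 1.96 log2, with T0 means of 6.57 to 6.82 log2. The A/J response of -0.24 log2 was not called, and it stood 1.51 log2 from theirs (adjusted p = 0.000159). Both A/J means and the T1 means of the other 4 strains lay under the limit, so none of these responses has an exact size. Whether strain variants lie under these probe sets was not tested.

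Where the A/J response lay above that of the others, A/J mostly fell less or started lower. Of these 80 genes, 49 had negative responses on both sides, 17 were positive in A/J and negative in the others and 14 were positive in both. The T0 level of A/J was called lower for 51 of the 80, and its T1 level was called higher for 36. The difference between responses equals the distance of A/J from the others at T1 minus that at T0, in the same arrays. Such counts thus follow in part from how the 80 were chosen, and the shares over all genes were not computed. Id3, which inhibits E proteins, rose by 1.40 log2 in A/J, against responses of -0.53 to 0.83 log2 in the others (difference 1.30 log2, adjusted p = 0.000121). Id3 had 7.00, 7.27, 7.49 and 6.99 log2 in A/J T1 arrays 1, 2, 4 and 5, against 5.74, 5.70, 5.91 and 5.80 log2 in A/J T0 arrays 1, 2, 4 and 5. The A/J groups did not overlap. The Id3 response did not differ from that of Balb/c alone (limma adjusted p = 0.735). Its relative Id1 rose by 1.30 log2 in A/J, a difference of 0.68 log2. Samhd1, which breaks down deoxynucleotides, fell by 0.78 log2 in A/J and by 1.26 to 2.64 log2 in the others. The Samhd1 response did not differ from that of 129X1/SvJ alone (limma adjusted p = 0.201) or Balb/c alone (adjusted p = 0.168). Txnip, a brake on glucose uptake, fell by 0.63 log2 in A/J, and the difference from the others was 0.87 log2.

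Ly6d, an antigen found on B lineage cells, was lower at T0 in every A/J array than in any T0 array of the other strains. Ly6d had 6.47, 6.20, 6.43 and 6.09 log2 in A/J T1 arrays 1, 2, 4 and 5, against 6.58, 6.14, 6.71 and 6.62 log2 in A/J T0 arrays 1, 2, 4 and 5. The groups overlapped, and the response of -0.21 log2 was not called. The others had responses of -2.67 to -0.82 log2, and at T0 A/J stood -2.32 log2 from them. Of the 18 B cell markers tested, 3 (Ly6d, Fcrla and Btk) were called for the difference between responses, all with the A/J response above the others. Btk lost its call when 1 of A/J T1 replicates 1, 2 or 4 or A/J T0 replicates 1, 2 or 4 was left out (adjusted p 0.0589 to 0.0971). Unlike Ly6d, Fcrla fell in A/J, by 1.30 log2, with a difference of 1.15 log2 from the others. The Fcrla response did not differ from that of Balb/c alone (limma adjusted p = 0.233) or C57BL/6J alone (adjusted p = 0.556). Pld4, an exonuclease of endosomes in B cells and plasmacytoid cells, had a difference of 1.23 log2 that was not called without DBA/2J (adjusted p = 0.0737). The B cell marker list averaged 7.25 log2 at T0 in A/J, against 8.30 in 129X1/SvJ, 8.23 in DBA/2J, 7.47 in C57BL/6J and 7.51 in Balb/c. Its part in these differences was not tested. Neutrophil markers averaged 7.02 log2 at T0 in A/J, against 5.29 in C57BL/6J to 6.63 in DBA/2J, and the neutrophil genes Camp and Ly6g had A/J responses -0.95 and -1.31 log2 from the others. Camp lost its call when 1 of A/J T1 replicates 1, 2, 4 or 5 or A/J T0 replicates 1, 2 or 4 was left out (adjusted p 0.0811 to 0.174). Ly6g lost its call when 1 of A/J T1 replicates 1 or 2 or A/J T0 replicates 1 or 2 was left out (adjusted p 0.0561 to 0.081). The A/J response of Pld4 lost its call when 1 of A/J T1 replicates 2 or 5 or A/J T0 replicates 4 or 5 was left out (adjusted p 0.0505 to 0.149).

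Where the A/J response lay below that of the others, it mostly rose less. Of these 37 genes, 20 had positive responses on both sides, 9 were negative in A/J and positive in the others and 8 were negative in both. The T0 level of A/J was called higher for 27 of the 37 and its T1 level lower for 13. These counts, too, follow in part from how the 37 were chosen. Cish, an inhibitor of cytokine signalling, rose by 0.74 log2 in A/J, against 0.38 to 2.89 log2 in the others (difference -1.05 log2, adjusted p = 9.79e-05). Cish had 9.99, 9.87, 9.82 and 9.56 log2 in A/J T1 arrays 1, 2, 4 and 5, against 9.23, 9.21, 8.87 and 8.97 log2 in A/J T0 arrays 1, 2, 4 and 5. The A/J groups of Cish did not overlap. Ccnd2, the cyclin D2 gene, rose by 1.05 log2 in A/J and by 1.27 to 2.34 log2 in the others (difference -0.78 log2). The Ccnd2 response did not differ from that of Balb/c alone (limma adjusted p = 0.455) or C57BL/6J alone (adjusted p = 0.696). Xbp1, a factor of the secretory pathway, fell by 0.96 log2 in A/J, with a difference of -0.63 log2. Stat5a, which acts after the interleukin 2 receptor, had a difference of -0.65 log2 and Dhrs3, a retinal reductase, of -0.83 log2. These calls of Cish, Stat5a and Dhrs3 were lost without DBA/2J (adjusted p = 0.05, 0.192 and 0.234), and those of Stat5a and Dhrs3 also without 129X1/SvJ (adjusted p = 0.298 and 0.147).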

How the data were processed

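RNA of CD4+ splenocytes was measured on 34 Affymetrix whole-transcript mouse arrays. The authors deposited log2 values computed with RMA, per the submitters' processing notes, which includes background correction, quantile normalization and summary of the probes of a set. The RMA version is not given in the sources used. The deposited log2 values ran over 1.04 to 14.26, with array medians of 5.28 to 5.39, and no pair of arrays shared more than 0.045% equal values. Of 35556 probe sets, 21789 were annotated to 1 gene symbol, 1621 to several and 12146 to none, and only the first were named. Symbols were updated through gene identifiers, of which 21698 matched RefSeq (GRCm38.p6). One probe set per gene was kept, that of highest mean, and for 7 of 660 tested genes with several sets the sets moved in opposite directions in A/J. Genes with near-identical copies, as in the Gbp, Ly6, Klrb1, Schlafen and Ifi200 families, may share signal.

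Genes were kept when the highest of their 10 group means was at or above 5.327 log2, the median of all values, used here as the detection limit. A single limma model (limma 3.58.1 in R 4.3.3, residual df 24, prior df 5.9) held a mean for each of 10 groups. The contrasts were A/J T1 minus A/J T0, and that response minus the mean response of the other 4 strains. Adjustment followed Benjamini and Hochberg over all 11413 genes, with calls at adjusted p under 0.05 (Benjamini-Hochberg, limma). Genes named in the text were the 15 largest rises and falls with groups that do not overlap, the 15 largest differences from the other strains in each direction, the leading members of each list by moderated t, and a fixed set of T cell genes. Others were named after their values were seen, among them all microRNA genes. The members and lists were chosen with earlier results of these data known. Lists are described by counts and medians, without a test. The model was tested on simulated data. Alternatives were other filters, normalization, probe set choice, variance estimation, a replicate block and the omission of arrays or strains. Levels of different probe sets were not compared. Array number limits the precision.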

Additional observations from a re-analysis of the deposited data

Results flagged for a closer look

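In 19 cases, 1 of the 4 A/J arrays of a time stood far from the other 3 for a gene named above or chosen by the same rule. There were 283 such genes, each with a group of 4 arrays at both times. A spread this uneven is found by chance in about 1 of 20 groups of 4, so the number of cases is no more than chance would give. At T1 the array that stood apart was high for Pcmtd2 (6.62 log2 in replicate 4, against 6.10 in the nearest array), Klrb1f (5.17 in replicate 4, nearest 4.66), Rcan1 (8.07 in replicate 4, nearest 7.60), Ccng2 (7.29 in replicate 4, nearest 7.01), Dusp10 (9.09 in replicate 2, nearest 8.91), Nr4a2 (10.83 in replicate 2, nearest 10.65) and Srm (10.14 in replicate 1, nearest 9.99). It was low for Il10 (10.07 in replicate 2, nearest 10.47), Alas2 (11.46 in replicate 2, nearest 11.86), Nfatc1 (8.24 in replicate 4, nearest 8.53), Tnfsf9 (6.57 in replicate 5, nearest 7.10), Tnfsf14 (7.93 in replicate 5, nearest 8.51), Dusp4 (9.85 in replicate 5, nearest 10.00) and Bcl6 (6.99 in replicate 5, nearest 7.59). At T0 it was high for Fcrla (7.00 in replicate 1, nearest 6.52) and Gnl3 (8.66 in replicate 5, nearest 8.33), and low for Ccl4 (6.72 in replicate 2, nearest 6.87), Flt3 (5.03 in replicate 2, nearest 5.54) and Mir19a (5.46 in replicate 4, nearest 6.14).

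The A/J response differed from the mean response of the other strains, by a limma test of that difference, for 43 of the genes named. It lay above the others for Ly6d (1.61 log2), Ifi209 (1.54), Idh1 (1.51), Fam111a (1.41), Cxcl3 (1.36), Akr1c18 (1.33), Id3 (1.30), Apol7c (1.25), Pld4 (1.23), Fcrla (1.15), Acsf2 (1.11), Cd55 (1.04), Il9r (1.04), Samhd1 (1.03) and Ly6e (1.03). Smaller positive differences were those of Abca1 (0.94 log2), Ddit4 (0.89), Txnip (0.87), Btk (0.87), Gzmk (0.83), Siglech (0.77), Id1 (0.68), Jund (0.59) and Grap2 (0.53). The A/J response lay below the others for Il4 (-2.56 log2), Gzmb (-1.47), Trub1 (-1.34), Il3 (-1.32), Il13 (-1.31), Ly6g (-1.31), Tdgf1 (-1.19), Xcl1 (-1.19), Cish (-1.05) and Rgs1 (-1.04). Smaller negative differences were those of Camp (-0.95 log2), Dhrs3 (-0.83), Gpr89 (-0.83), Ccnd2 (-0.78), Lsm8 (-0.77), Stat5a (-0.65), Xbp1 (-0.63), Stt3b (-0.59) and Prps1 (-0.50).

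Several of these differences lost their call when 1 A/J array was left out, most of them for more than 1 choice of the array. Such a fit also has fewer arrays. Cd55 lost its call when 1 of A/J T1 replicates 4 or 5 or A/J T0 replicates 1, 2 or 4 was left out (adjusted p 0.0549 to 0.126). Fam111a lost its call when 1 of A/J T1 replicates 1, 4 or 5 or A/J T0 replicates 1, 2 or 4 was left out (adjusted p 0.0702 to 0.139). Cxcl3 lost its call when 1 of A/J T1 replicate 1 or A/J T0 replicate 5 was left out (adjusted p 0.0513 to 0.0701). Akr1c18 lost its call when 1 of A/J T1 replicates 1, 2 or 4 or A/J T0 replicates 1, 4 or 5 was left out (adjusted p 0.0571 to 0.109). Apol7c lost its call when 1 of A/J T1 replicates 1, 4 or 5 or A/J T0 replicates 1, 2, 4 or 5 was left out (adjusted p 0.0764 to 0.166). Rgs1 lost its call when 1 of A/J T1 replicates 2 or 5 or A/J T0 replicates 1, 2 or 5 was left out (adjusted p 0.0553 to 0.0856). Gpr89 lost its call when 1 of A/J T1 replicate 5 or A/J T0 replicates 1 or 2 was left out (adjusted p 0.0524 to 0.0598). Lsm8 lost its call when A/J T0 replicate 2 was left out (adjusted p = 0.0561). Grap2 lost its call when 1 of A/J T1 replicates 2 or 4 or A/J T0 replicate 1 was left out (adjusted p 0.0776 to 0.0827). Ddit4 lost its call when 1 of A/J T1 replicate 4 or A/J T0 replicate 5 was left out (adjusted p 0.0508 to 0.0511). Prps1 lost its call when 1 of A/J T1 replicates 4 or 5 or A/J T0 replicates 1 or 2 was left out (adjusted p 0.0607 to 0.0913). Siglech lost its call when 1 of A/J T1 replicates 1, 4 or 5 or A/J T0 replicates 1, 2 or 4 was left out (adjusted p 0.0559 to 0.13). Btk lost its call when 1 of A/J T1 replicates 1, 2 or 4 or A/J T0 replicates 1, 2 or 4 was left out (adjusted p 0.0589 to 0.0971). The call of Camp or Ly6g was likewise lost when 1 array was left out, as given in the results. For Ifi209 and Il9r the difference kept its call in each such fit, but the A/J response itself did not. The Ifi209 difference was not called without 129X1/SvJ (adjusted p = 0.0568) or without DBA/2J (adjusted p = 0.0586). Ifi209 lost its call when 1 of A/J T1 replicate 4 or A/J T0 replicates 1, 2, 4 or 5 was left out (adjusted p 0.0513 to 0.222) in A/J, and Il9r lost its call when A/J T0 replicate 2 was left out (adjusted p = 0.0687).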

How the results depend on the processing

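The count of 6460 genes changed in A/J stayed within 1.5 times under each alternative run, from 4457 with the A/J arrays numbered 4 and 5 alone to 6900 with strain and replicate number as a block. Without 1 A/J array it was 5950 to 6525, with numbers 1 and 2 alone 5648, with no filter 6811, with a second quantile normalization 6545 and with the 8 A/J arrays alone 6504. Without a filter the median of all genes was 0.06 log2 and 39.9% of the calls were higher at T1, and after the second quantile normalization the median was -0.03 log2 and 40.2% were higher, against 35.8% as reported. The count of 117 genes whose A/J response differed from the other strains moved more. Without 1 A/J array it was 73 to 95, of which 73 without A/J T0 replicate 1 and 75 without A/J T1 replicate 4. It was 48 without 129X1/SvJ, 370 without Balb/c, 196 without C57BL/6J and 31 without DBA/2J, and 31 or 32 with the A/J arrays numbered 1 and 2 or 4 and 5 alone. Set against 129X1/SvJ alone it was 323, against DBA/2J alone 392, against Balb/c alone 12, and 16 against Balb/c without Balb/c T1 replicate 2. No filter gave 99, a stricter filter 105, the second normalization 150, the probe set of highest SD 118, trend and robust estimation 119, omission of Balb/c T1 replicate 2 146, and C57BL/6J alone 128. The settings by array number and by single strain were chosen after the data were seen. The cause of these movements was not tested. Fits that leave arrays or strains out also hold fewer arrays.

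With strain and replicate number as a block 204 genes differed from the other strains, against 117, and 108 genes were common to both. The labels do not say that a number marks the same animal. The deviations of A/J arrays of the same number from their group means correlated at 0.136, 0.258, -0.078 and 0.237 for numbers 1, 2, 4 and 5. Not every A/J array correlated best with its own number. The values were 0.282 to 0.464 in C57BL/6J, 0.410 to 0.474 in 129X1/SvJ, 0.184 to 0.343 in Balb/c and 0.029 to 0.256 in DBA/2J. Every array of C57BL/6J, 129X1/SvJ and Balb/c correlated best with its own number, a hint from the data and not the design. Since A/J and DBA/2J held pairs under 0.1, the fit without the block is the one reported.

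Of the 283 genes named or chosen by the rule, 251 were called in A/J, of which 217 kept the call in every alternative run and 34 lost it in at least 1. No named gene reversed its sign while called. Of the 43 called for the difference between responses, 9 kept the call in every alternative and 34 lost it in at least 1. Wdr12 lost its A/J call with no filter (adjusted p = 0.0647) and with the probe set of highest SD, where its difference was 0.04 log2, and Nfatc2 after the second normalization (adjusted p = 0.054). Array number and the detection limit set the precision: 586 of the tested genes had both A/J means under 5.327 log2, and on simulated data with these 11413 genes the A/J test found 46 of 50 genes changed by 0.5 log2 while the test of the difference between responses found 23 of 50.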

Other observations

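Of 660 tested genes with more than 1 probe set, 7 had probe sets that moved in opposite directions in A/J, each called by limma at an adjusted p under 0.05. Atxn7l1 had probe sets at 0.92 and -0.80 log2 (T1 minus T0). Sema4d, a semaphorin of T cells, had probe sets at 0.64 and -0.29 log2. Aff1 had them at 0.45 and -0.50 log2, Gpatch8 at 0.40 and -0.74 log2, Rbm6, an RNA-binding protein, at 0.22 and -0.56 log2, Zmpste24 at 0.33 and -0.43 log2, and the histone deacetylase gene Hdac4 at 0.30 and -0.39 log2. Which transcripts each probe set reads was not analysed here.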
